A study of Mus musculus with 2 samples.

Results

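The protamine and transition protein genes Prm1, Prm2, Prm3, Tnp2 and Tnp1 were described in an H3K4me3 CUT&RUN profile of mouse prospermatogonia, which are germ cells of the testis before birth. The 5 genes were chosen by name, and their peaks were those that overlapped a gene body or the 20 kb on either side of it. That rule found 4 peaks of the 135064 in the list, 3 around the chromosome 16 cluster of Prm1, Prm2, Prm3 and Tnp2 and 1 at Tnp1 on chromosome 1. Prospermatogonia had been sorted as Oct-GFP positive cells, carrying a fluorescent reporter of germ cells, at E17.5, late in gestation, and 130000 cells were used per assay. By the labels, 1 library was made with an H3K4me3 antibody and 1 with rabbit IgG from the same kind of cells, and neither has a mutation or a treatment named. Peak values of the H3K4me3 library were analysed, and IgG values were not used here. With 1 library, there were no replicates and no test between groups.

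The products of Prm1 and Prm2 are small, arginine-rich protamines that replace histones in the sperm nucleus and allow its chromatin to be packed tightly. The product of Prm3 is not covered by that description. Transition proteins hold the place between histone removal and protamine deposition. In mice these genes are transcribed in round spermatids, long after the fetal stage studied here, and their mRNAs are stored before translation. H3K4me3 is a histone mark of the start sites of active genes and of genes held ready for activity.

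The 250 bases before each start site are shown here, because a peak lay over those of Tnp1 and none lay over those of the other 4 genes. The sequences are from RefSeq for build GRCm38.p6, which has the coordinates of mm10. All 5 genes are on the minus strand, and each sequence reads 5′ to 3′ in the direction of transcription, with CpG dinucleotides in capitals. The Prm1 sequence is chr16:10796824-10797073, that of Prm2 is chr16:10792106-10792355 and that of Prm3 is chr16:10790915-10791164. The Tnp2 sequence is chr16:10788656-10788905 and the Tnp1 sequence is chr1:73015900-73016149.
Prm1: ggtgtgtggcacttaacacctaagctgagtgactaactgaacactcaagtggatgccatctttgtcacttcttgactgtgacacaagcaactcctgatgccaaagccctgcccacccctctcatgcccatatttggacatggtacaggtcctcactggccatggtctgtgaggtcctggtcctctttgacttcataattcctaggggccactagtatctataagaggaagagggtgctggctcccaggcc
Prm2: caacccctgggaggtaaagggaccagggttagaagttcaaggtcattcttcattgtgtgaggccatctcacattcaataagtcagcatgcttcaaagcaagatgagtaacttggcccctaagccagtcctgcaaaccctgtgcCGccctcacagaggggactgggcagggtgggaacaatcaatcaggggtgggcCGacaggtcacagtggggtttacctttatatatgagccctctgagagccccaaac
Prm3: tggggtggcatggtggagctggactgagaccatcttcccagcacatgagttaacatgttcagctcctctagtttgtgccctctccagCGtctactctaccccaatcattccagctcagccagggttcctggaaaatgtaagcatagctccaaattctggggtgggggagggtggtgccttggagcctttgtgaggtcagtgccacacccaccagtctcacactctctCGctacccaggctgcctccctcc
Tnp2: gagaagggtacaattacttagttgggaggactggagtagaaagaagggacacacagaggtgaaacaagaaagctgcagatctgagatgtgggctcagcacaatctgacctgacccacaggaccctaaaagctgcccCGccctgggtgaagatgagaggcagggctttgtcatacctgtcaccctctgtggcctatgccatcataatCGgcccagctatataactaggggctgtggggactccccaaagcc
Tnp1: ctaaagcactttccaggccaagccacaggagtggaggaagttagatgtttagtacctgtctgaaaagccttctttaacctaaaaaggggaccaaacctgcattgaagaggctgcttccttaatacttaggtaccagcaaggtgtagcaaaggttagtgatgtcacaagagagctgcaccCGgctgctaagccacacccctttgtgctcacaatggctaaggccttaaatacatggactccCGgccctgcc
The Prm1 sequence held 0 CpG, and the other 4 sequences held 2 each. The Tnp1 sequence lay wholly inside its peak.

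No H3K4me3 peak lay on or between the genes of the Prm cluster. From Tnp2 to Prm1 the cluster spans 8889 bp, and it sat inside a stretch of 47899 bp without a peak, chr16:10786712-10834610. Tnp2, whose product is a zinc-binding transition protein, lies from 10787935 to 10788655, and its nearest peak was 1223 bp from its 3′ end. That peak lay over the start of the neighbouring gene Socs1. Prm3 lies from 10790508 to 10790914, and its nearest peak was 3796 bp away. Prm2, whose protein is made as a longer precursor, lies from 10791377 to 10792105, with the nearest peak at 4665 bp. Prm1 lies from 10796332 to 10796823, with the nearest peak at 9620 bp. For all 4 genes the nearest peak was the same one, on the Tnp2 side, and on the Prm1 side the next peak began 37787 bp beyond Prm1.

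A peak-free stretch of this length was less common around genes of all lengths than around short ones. Of all 21883 protein-coding genes, 7.69% (95% Wilson interval 7.35 to 8.05) lay wholly in a stretch without peaks that was at least as long. Among the 1577 protein-coding genes of 1000 bp or less, which include the 5 studied here at 407 to 826 bp, the share was 25.3% (23.2 to 27.5). The 4 cluster genes share 1 such stretch, so they count as 1 observation of it.

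The 3 peaks in the cluster's window all lay at Socs1, which encodes an inhibitor of cytokine signalling. Socs1 runs from 10783808 to 10785536 on the minus strand, and 2398 bp separate its start from the 3′ end of Tnp2. The peak over the Socs1 start was 1307 bp wide, chr16:10785405-10786711, with a summit 151 bp upstream of that start. It had a summit pileup of 41 fragments (95% exact Poisson interval 29.4 to 55.6) and a fold enrichment of 4.53 (3.28 to 6.11), the ratio of the pileup to the local background that the peak caller used. The other two peaks lay inside Socs1. One, of 525 bp, had 29 fragments and a fold of 3.25, and the other, of 337 bp, had 37 fragments and a fold of 4.09. Together the 3 peaks spanned 2431 bp and covered 4.44% of the 48889 bp window. The pseudogene Gm10343, at the far side of Prm1, had no peak.

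Outside the window, 17788 bp beyond its edge, the next peak on the Prm1 side covered the nearer end of Rmi2, a gene of genome stability, and part of the pseudogene Gm17913. It was 1128 bp wide with 29 fragments and a fold of 7.08. On the Socs1 side the next peak was 221926 bp beyond the window, at an end of Clec16a, a gene of autophagy, with 39 fragments and a fold of 4.36.

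**Figure D1:**
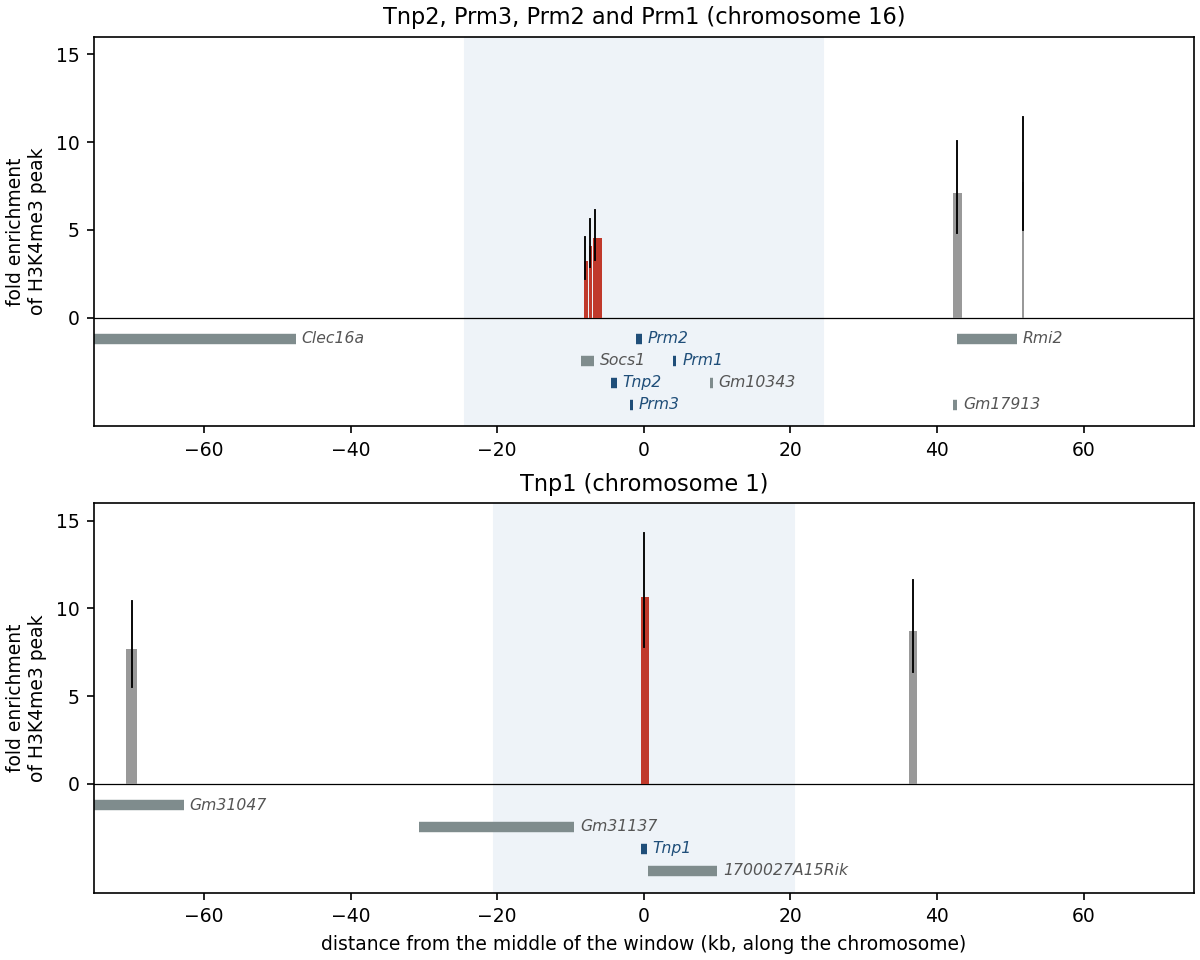
H3K4me3 peaks around the Prm cluster (top) and Tnp1 (bottom), plotted as the fold enrichment of each peak against the distance in kb from the middle of the window. The shaded area is the gene bodies with 20 kb either side, red bars are peaks inside it, grey bars are peaks outside it, vertical lines are 95% Poisson intervals, and genes are drawn below each axis. The red bars of the upper panel stand over Socs1 with folds of 3.25 to 4.53, and the bar at Tnp1 reaches 10.7.

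Tnp1, whose product is the smaller transition protein, differed from the cluster by having a peak over almost all of the gene. Tnp1 lies on chromosome 1 from 73015074 to 73015899, and the peak, chr1:73015099-73016235, was 1137 bp wide. It covered 801 of the 826 bp of Tnp1 (97%) and reached 336 bp upstream of the start. Its summit lay 348 bp inside the gene, against a median of 118.5 bp inside for the highest start-site peak of 12812 protein-coding genes, and 33.5% of those genes had a summit still farther inside. The pileup at the summit was 43 fragments (31.1 to 57.9) and the fold was 10.7 (7.78 to 14.3).

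The same peak also covered the start of a long noncoding RNA gene, 1700027A15Rik, which is transcribed the other way. That start, at 73016036, is 137 bp from the start of Tnp1, and the peak extended 199 bp beyond it. A peak list carries no strand, so the peak cannot be assigned to Tnp1 or to the noncoding gene. The summit was nearer to the Tnp1 start than to that of the noncoding gene, at 348 bp against 485 bp. None of the 4 cluster genes has a listed start site facing the other way within 500 bp. Of the 2052 protein-coding genes with such a neighbour, 96.9% had a peak within 1000 bp of their start, against 70.1% of the 15439 genes without one. CpG number is not held equal in this contrast. Most promoters with such a neighbour, 1749, had at least 15 CpG, and there 95.9% overlapped a peak, against 93.4% of those without. With 5 to 8 CpG, as in Tnp1, the shares were 72.2% and 54.1%.

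The Tnp1 peak stood alone in its surroundings. No other peak lay in the 40826 bp window, of which it covered 2.78%. The next peaks were 35400 bp away on the side of the noncoding gene and 68690 bp away on the other. The nearer of these, chr1:73051636-73052727, overlapped no annotated gene and had 44 fragments and a fold of 8.70. The farther one lay inside the noncoding gene Gm31047, with 40 fragments and a fold of 7.69. No protein-coding gene other than Tnp1 lay in the window.

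The fold of the Tnp1 peak stood high among gene starts, while its pileup did not. Among the 12812 protein-coding genes with a peak within 1000 bp of a start, 99% had a lower fold than Tnp1. A lower pileup was found in 53.5%, and the median pileup was 42 fragments. Its local background of 3.13 fragments was low, with 8.9% of these genes lower and a median of 5.96. The peak at the Socs1 start had 41 fragments over a background of 8.26. Tnp1 over Socs1 was 1.05 in pileup, with Poisson intervals that overlap widely, and 2.35 in fold. Width was also ordinary at Tnp1, with 1137 bp against a median of 1157 bp. The rank in fold depends on the promoters compared. Of promoters that overlapped a peak, 37 of 1052 with 5 to 8 CpG had a fold at least that of Tnp1. With at least 23 CpG it was 2 of 5092.

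What the fold is measured against is in part uncertain. The names of the peaks refer to IgG, which points to an IgG control in the calling. The recovered backgrounds were nevertheless spaced in steps of 0.0158 fragments, which is the smallest peak width divided by 10 kb. This held, to a tolerance of 0.05 steps, for all 93075 backgrounds above the lowest value, and leaves no scaling factor for another library. The fold is therefore read as enrichment over nearby signal of the H3K4me3 library itself, and any other use of the IgG library in the calling cannot be read from the list.

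**Figure D2:**
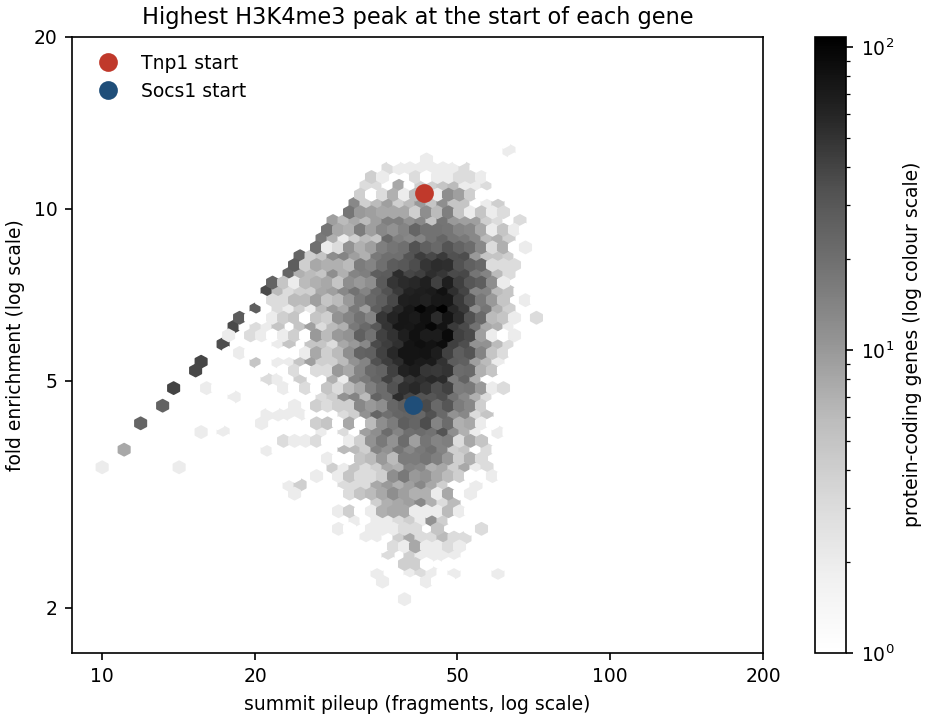
Fold enrichment against summit pileup in fragments, both on log scales, for the highest peak within 1000 bp of the start of each of 12812 protein-coding genes, drawn as hexagons shaded by the number of genes. Tnp1 (red) and Socs1 (blue) stand at similar pileups, 43 and 41 fragments, and at folds of 10.7 and 4.53.

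The genes whose highest end peak was nearest to that of Tnp1 in fold, pileup and width, by distance on log2 scales over 16295 genes in this 1 library, were Vasn, Cysltr2 and Gm14595. Vasn had a fold of 10.5, 43 fragments and 1122 bp. Cysltr2 had 10.7, 41 fragments and 1143 bp, and Gm14595 had 10.4, 45 fragments and 1139 bp.

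Counted as a list, 1 of the 5 genes was marked, meaning that a peak overlapped the 1000 bp either side of an annotated gene end. Of all protein-coding genes 74.5% were marked by that rule, and 29.4% of those of 1000 bp or less. At annotated start sites alone the count was also 1 of 5, beside 73.2% of all genes with a listed start. With peaks in the gene body it was again 1 of 5, beside 81.9% of all genes and 25.8% of the short ones. The count of 1 in 5 is therefore near the share of short genes, and 4 of the 5 genes are neighbours and not independent of each other. All 5 genes had a peak in the body or the 20 kb flanks, as did 96.2% of protein-coding genes and 85.9% of the short ones. The windows of the cluster genes, at 3 peaks each, stood beside medians of 2 peaks for short genes and 4 for all genes. Tnp1 had 1 peak, fewer than these medians, although it was the gene with a peak on it.

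Absence from the list has a floor that depends on the local background. The weakest listed peaks at the lowest background of the list, 2.11 fragments, had 9 fragments at the summit. At the background of the Tnp1 peak the weakest had 12, and at that of the Socs1 peak 24. Signal below such levels at Prm1, Prm2, Prm3 or Tnp2 was not detectable in this list.

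CpG content of the promoter differed among the genes when the first 50 transcribed bases were included. In these 300 bases Prm1 had 1 CpG, Prm2 had 3, Prm3 and Tnp2 had 4 each, and Tnp1 had 6, while Socs1 had 18. The median over 17491 protein-coding genes was 15. By the ratio of observed to expected CpG, Tnp1 at 0.313 was above 31.3% of promoters, and the cluster genes, from 0.0487 for Prm1 to 0.174 for Tnp2, were above 5.34% to 18.7%. Share of GC did not follow this order, with 50.7% in Tnp1 and 52.7% to 57% in the cluster genes.

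The share of promoters with a peak differed by CpG number over the range these genes occupy, by more than the counting intervals. Of promoters with 0 or 1 CpG, as in Prm1, 4.64% (3.81 to 5.63) overlapped a peak. With 2 to 4 CpG, as in Prm2, Prm3 and Tnp2, the share was 16.8% (15.4 to 18.2), and with 5 to 8, as in Tnp1, it was 54.8% (52.6 to 57). From 9 to 14 CpG it was 91.3%, and over all 17491 promoters 66.6%. All 5 genes therefore stood with the more frequent outcome of their class. This placing of Tnp1 rested on the 4 CpG at or after the start. Counted over the 250 printed bases alone, Tnp1 had 2 CpG like Prm2, Prm3 and Tnp2, and 16.6% (14.6 to 18.8) of promoters in that class overlapped a peak. Within the class of 5 to 8 CpG, 72.2% (61 to 81.2) of the 72 promoters with a divergent start had a peak, against 54.1% (51.9 to 56.4) of the 1847 without.

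**Figure D3:**
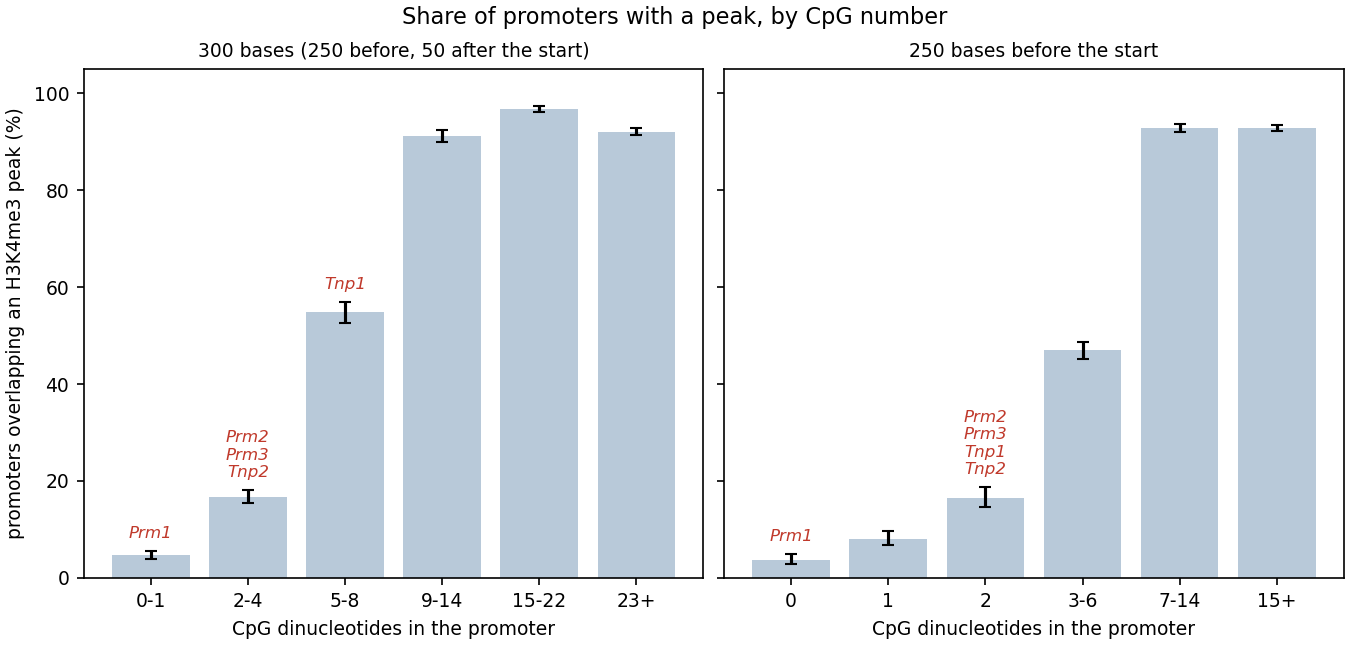
Percentage of promoters that overlap an H3K4me3 peak, by number of CpG dinucleotides, counted in the 300 bases around the start (left) or the 250 bases before it (right), with 95% Wilson intervals as error bars and the 5 genes written above their class. Tnp1 stands in a class of 54.8% on the left and shares a class of 16.6% with Prm2, Prm3 and Tnp2 on the right.

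Letters of spermatid promoter motifs were looked for on both strands of the 300 bases, as a description of the printed sequences. CREM, an activator of spermatid genes, is known to bind the cAMP response element. The full palindrome of that element was in none of the 5 promoters and in 2.34% of all, and its core pentamer TGACG was in none of the 5 and in 24.3% of all. The looser pattern TGANGTCA, which includes the palindrome and was chosen after the sequences had been seen, was in 3 of the 5 and in 8.77% of all promoters. In Tnp1 it read TGATGTCA, 94 to 87 bases before the start. In Prm3 it read TGAGGTCA, 60 to 53 bases before the start, and in Prm1 the match was on the other strand, TGACTTCA as printed, 64 to 57 bases before the start. TATATA was present in Prm2, 29 to 24 bases before the start, and in Tnp2, 35 to 30 bases before it, and in 5.8% of all promoters. TATAAA occurred in Prm2 only, on the other strand and overlapping its TATATA, and in 12.9% of all promoters. Promoters with TATATA overlapped a peak in 31.2% of cases, against 68.8% of those without, and those with TGANGTCA in 55.5%, against 67.7%. Median CpG number was 2 with TATATA against 16 without, and 6.5 with TGANGTCA against 15 without, so the part of CpG in these shares was not tested.

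Most genes of 5 lists drawn up around sperm formation were marked. The lists hold histone variants of spermatids, factors of histone removal, transcription factors of spermatids, regulators of stored mRNA, and other late genes of sperm metabolism, acrosome and tail, which have no known part in histone exchange. Across these lists, a peak stood at an end of 50 of 64 genes, which is 78.1% (Wilson interval 66.6 to 86.5), against 74.5% of all protein-coding genes, a share inside that interval. The median fold of the 64 genes was 5.14 with unmarked genes at 0, against 5.47 for all protein-coding genes, and 0 for the 5 genes. The marked share of the 5 genes was 20% (3.62 to 62.4), and its interval treats the 4 neighbouring genes as if they were independent.

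Histone variants of spermatids, the proteins present before and during the exchange, were marked in 6 of 8 cases, beside 74.5% of all protein-coding genes. H2al2a, which encodes a short H2A variant of spermatids in mice, had a fold of 10.9 (7.62 to 15.2) with 33 fragments over the lowest background of the list, and its promoter held 0 CpG. H3f3a, a gene of histone H3.3, had 7.07 at an annotated end and 4.72 at a start. H2ac1 and H2bc1, the testis H2A and H2B genes, met the same peak of 659 bp with 36 fragments and a fold of 3.97. Hils1, a linker histone gene of spermatids, was unmarked with 0 CpG. H3f3b had no peak at its annotated ends but a fold of 6.69 at a start inside its extent.

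Factors of histone removal were marked in 12 of 15 cases, and at starts in 12 of 13, beside 74.5% and 73.2% of all protein-coding genes. Epc1, a subunit of a histone acetyltransferase complex, and Kat8, a histone H4 acetyltransferase, had the highest folds at annotated ends, 7.16 each. At starts inside the annotated extent Kat5, another acetyltransferase gene, was higher, with 9.01. Camk4, a kinase that phosphorylates protamines, was unmarked at its ends but held 5 peaks in its body. Cdyl, unmarked at its outermost ends, had a fold of 4.85 at a start. Hmgb4, unmarked as well, was the only gene of the 5 lists with no peak in its body or 20 kb flanks.

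Transcription factors of spermatids were marked in 11 of 11 cases (Wilson interval 74.1 to 100), and at starts in 9 of 10. The regulators of stored mRNA were marked in 10 of 10 (72.2 to 100), and at starts in 9 of 9. Over all protein-coding genes the shares were 74.5% at ends, inside both intervals, and 73.2% at starts. Fhl5, a partner of CREM, had the highest fold of all 5 lists, 11.9 (8.42 to 16.3), at the end that is not its listed start, where no peak was found. Kif17, a kinesin that acts on that partner, had 7.48. Among the mRNA regulators Piwil1, a PIWI protein of spermatocytes and spermatids, had 8.44 with 38 fragments, and Eif4g3, a translation initiation factor, had 6.34. Their promoters held 18 to 45 CpG.

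Other late sperm genes had the lowest marked share of the 5 lists. Over all protein-coding genes the shares were 74.5% at ends and 73.2% at starts. Among the late sperm genes 11 of 20 were marked (55%, Wilson interval 34.2 to 74.2), and 7 of 14 at starts. Adam2, a sperm surface protein gene, led with a fold of 9.38 (6.92 to 12.4), followed by Spaca1, an acrosomal membrane protein gene, with 43 fragments over a background of 4.01. Acrv1, an acrosomal protein gene, was unmarked with no peak in its body and 1 CpG in its promoter. Akap4, a sperm tail protein gene, had 1 CpG as well and was unmarked at its ends, but held 2 peaks in its body. CpG number had a median of 8.5, from 4 to 43, in the 8 marked genes with a promoter sequence and of 1.5, from 0 to 6, in the 6 unmarked ones. These ranges overlap, and Tnp1 with 6 and Prm3 and Tnp2 with 4 each fell within both. Prm1 with 1 and Prm2 with 3 fell only within that of the unmarked genes. A mark at either end counted here, and Gapdhs, marked with 4 CpG, had no peak at its start.

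**Figure D4:**
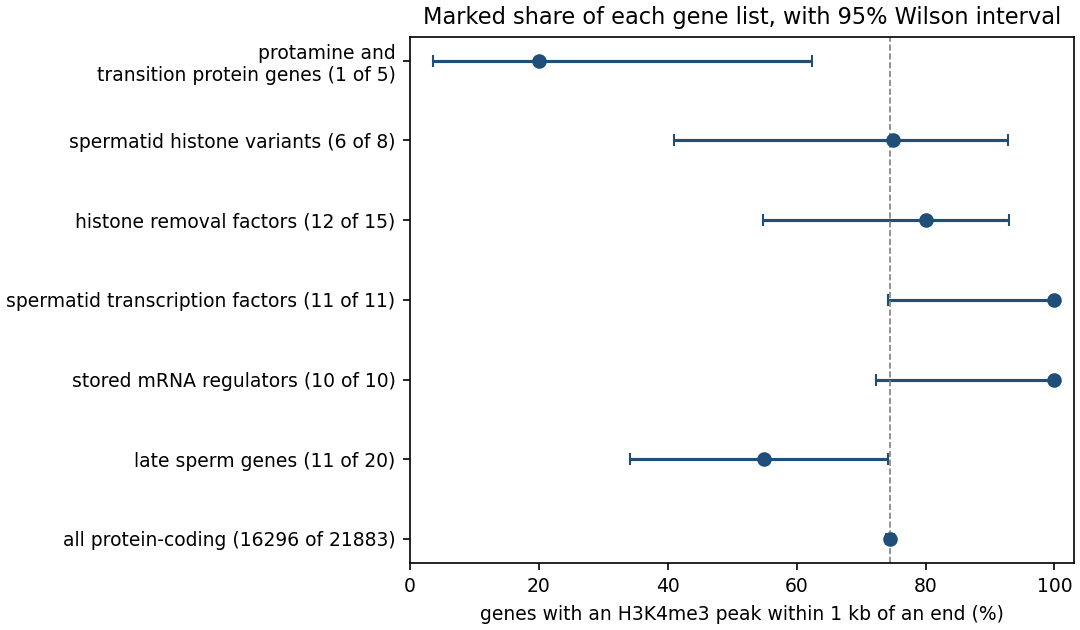
Percentage of genes with an H3K4me3 peak within 1 kb of an annotated end, with 95% Wilson intervals, for the 5 genes, 5 lists of genes of sperm formation and all protein-coding genes (dashed line). The protamine and transition protein genes stand at 1 of 5 and the late sperm genes at 11 of 20, and the other 4 lists lie between 75% and 100%.

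Markers of the labelled cell type and of other testis cells were looked at as well. All 6 germ cell markers were marked (Wilson interval 61 to 100). The 74.5% of all protein-coding genes lies inside that interval, so this count cannot check the label. Folds of the germ cell markers were 7.64 at Dppa4, 7.21 at Ddx4 and Mael, 4.16 at Sall4, 4.09 at Dazl and 3.17 at Pou5f1. The median of all marked genes was 6.21. Sertoli markers were marked in 4 of 5 cases, a share near that of all genes, Leydig markers in 1 of 5 and endothelial and blood markers in 2 of 6. At listed starts alone, germ cell markers were marked in 4 of 4 cases and Sertoli markers in 1 of 2. Leydig markers were marked there in 1 of 3 and endothelial and blood markers in 2 of 3, beside 73.2% of all genes. The marked genes of the last 2 lists, Hbb-bt at 11.1, Cyp11a1 at 9.90 and Tek at 8.63, had higher folds than every germ cell marker. Their pileups were 35, 51 and 39 fragments. Those of the germ cell markers ran from 33 at Mael to 40 at Sall4, apart from 106 at Pou5f1. Among the germ cell markers, only Pou5f1 had a higher pileup than Cyp11a1. The low fold of Pou5f1 stood over a background of 32.7 fragments, against 2.24 at Hbb-bt, 4.25 at Cyp11a1 and 3.63 at Tek. The part of other cell types in the Tnp1 peak was not tested.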

How the data were processed

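H3K4me3 CUT&RUN peaks of 1 library were analysed. The submitters' processing notes name MACS2 2.1.0 beside deepTools 3.5.1, bedtools 2.27.1, SAMtools 1.16.1, Bowtie2 2.5.0 and Trim Galore, and the builds mm10 and sacCer3. What each tool did, and with which settings, is not given in the sources. The authors deposited for each peak a fold enrichment, which is a ratio of summit pileup to local background, with −log10 p, −log10 q and a score. The deposited score is 10 times the −log10 q without decimals. These are the authors' values of single peaks. The number of fragments sequenced is not known from them.

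Summit pileup and background were recovered from the Poisson −log10 p and the fold, with 1 added to each side of the ratio. This solved 135053 of 135064 peaks within 0.0001. Intervals of pileups and folds are 95% exact Poisson intervals and those of shares 95% Wilson intervals. They cover counting error only. Median pileup was 27 fragments.

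Gene extents and start sites were from RefSeq GRCm38.p6 tables, with 17491 of 21883 protein-coding genes having a promoter sequence. For a gene with several promoters the one with most CpG was used. The 5 genes and all lists were chosen with earlier results of these data known. Of 65 listed genes 64 were matched by symbol or synonym, since H2afb1 is a synonym of more than 1 gene. Named genes were the 5 genes, their neighbours, the 2 highest and up to 2 unmarked members of each list, taken alphabetically, and the 3 genes nearest to Tnp1. H2ac1, H2bc1, Kat5 and markers were named after their values were seen. In simulated data, peaks were planted at gene ends with no other protein-coding gene end close by. There 200 of 200 planted genes were found with 0 others, which checks the overlap code only. Gene ends close to each other were not tried. Alternatives covered flanks, windows, overlaps, joined peaks and stricter peaks. Computation used Python 3.11.15 with pandas 2.3.3, scipy 1.17.1, numpy 2.4.6 and matplotlib 3.10.9.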

Additional observations from a re-analysis of the deposited data

How the results depend on the processing

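No paired analysis was possible because there is 1 library with values and no replicate. Of 40 alternatives 34 moved a count by no more than 1.5 times or left a value inside its interval. Among these, 2 chose the fold of Tnp1 from its 1 end peak and could not differ. With a flank of 50 kb the cluster window held 5 peaks and the Tnp1 window 2. With only peaks of a fold of at least 5 the cluster window held 0, because the fold of each Socs1 peak is under 5, and with peaks joined over gaps of 1000 bp it held 1. Within 2500 bp of an end 2 members were marked, since the Socs1 peak then reached Tnp2 with a fold of 4.53. With CpG counted in the 250 bases before the start, a count chosen after the data were seen, 16.6% of promoters in the class of Tnp1 had a peak. The count of 1 marked member was the same within 500 bp, at start sites, when 200 bp or the summit had to lie in the window, and with each stricter set of peaks. Those settings can only remove marks, so they bear on the Tnp1 peak and not on the unmarked genes. Related genes were marked in 35 to 55 of 64 cases over the alternatives, lowest with a fold of at least 5 and highest within 2500 bp. At the same settings 12565 and 17609 of all 21883 protein-coding genes were marked. A missing peak is limited by depth and local background, and multi-copy sequence was not checked.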

Other observations

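Promoters with as few CpG as that of Prm1 could still carry peaks of high fold. Of the 2071 promoters with 0 or 1 CpG, 96 overlapped a peak, and in 7 of these the fold was at least that of Tnp1. They belonged to Gm136, at 12.1, Trpv6, a calcium channel gene, at 11.7, Olfr610, an olfactory receptor gene, at 11.2, the beta globin gene Hbb-bt, Gm14393, at 11.0, and H2al2a and the histocompatibility gene H2-Eb2, at 10.9 each. These genes were chosen after their values were seen. The median pileup in that class was 25 fragments, over a background of 2.26, against 40 and 4.83 in the class of Tnp1 with 5 to 8 CpG. Promoters with at least 23 CpG had 41 fragments over 6.41, and a median fold of 5.65 against 7.08 for those with 0 or 1. None of the 7 has a listed start site facing the other way within 500 bp.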
